A study of Homo sapiens with 12 samples.

Results

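The 6 count rows described here lie in pairs at 3 genes of cell shape and epithelial to mesenchymal transition. The pairs are VIM and VIM-AS1, KRT18 and KRT8, and HMGA2 and HMGA2-AS1. In each pair the second row is annotated on the strand opposite the first and shares exon bases with it. They were chosen by name, with earlier results of these data known. They are 6 of the 60675 gene rows, and all 6 were among the 14911 rows that passed the count filter. RNA came from HSC-3, a cell line from a human oral squamous cell carcinoma, and each group had 4 libraries. The first group was given 25 µM cyclopiazonic acid (CPA) together with synta-66 for 3 hours, the second was given 25 µM CPA without synta-66 for 3 hours, and the third was left untreated. CPA inhibits SERCA, the pump that returns calcium to the endoplasmic reticulum. When that store runs down, ORAI channels at the cell surface let calcium in, and synta-66 inhibits them. The labels and protocols used here state no dose for synta-66, and cells given synta-66 alone were not analysed here. All libraries are of 1 cell line. Whether those of a group were grown as separate cultures is not stated, so the spread behind each p-value may be no more than technical.

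Vimentin (VIM) is the type III intermediate filament protein of mesenchymal cells, and carcinoma cells that go through epithelial to mesenchymal transition commonly gain it. Keratin 8 (KRT8, type II) and keratin 18 (KRT18, type I) pair to form the filaments of simple epithelia, and their genes are neighbours. HMGA2 is a chromatin protein that binds AT-rich DNA through AT-hooks. It is a well-known target of the let-7 microRNAs and is linked with epithelial to mesenchymal transition in carcinomas.

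Coordinates are from GENCODE 44 on GRCh38, counted from 1. VIM (ENSG00000026025) lies on the plus strand at chr10:17228241-17237593. VIM-AS1 (ENSG00000229124), a long noncoding RNA gene on the minus strand at chr10:17214239-17230018, shares 656 exon bases with VIM, which is 30.9% of its own exon bases. A second noncoding row, ENSG00000234961, lies on the minus strand at chr10:17233325-17234833 within VIM and shares 619 bases, or 87.7% of its exons. KRT18 (ENSG00000111057) lies on the plus strand at chr12:52948871-52952906. KRT8 (ENSG00000170421) lies on the minus strand at chr12:52897187-52949954 and shares 525 bases with KRT18, which is 7.6% of KRT8's exon bases and 17.1% of KRT18's. HMGA2 (ENSG00000149948) lies on the plus strand at chr12:65824460-65966291. HMGA2-AS1 (ENSG00000197301), noncoding and on the minus strand at chr12:65851340-65882167, shares 384 bases with HMGA2, or 6.4% of its exons, all within an alternative last exon of HMGA2.

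**Figure D1:**
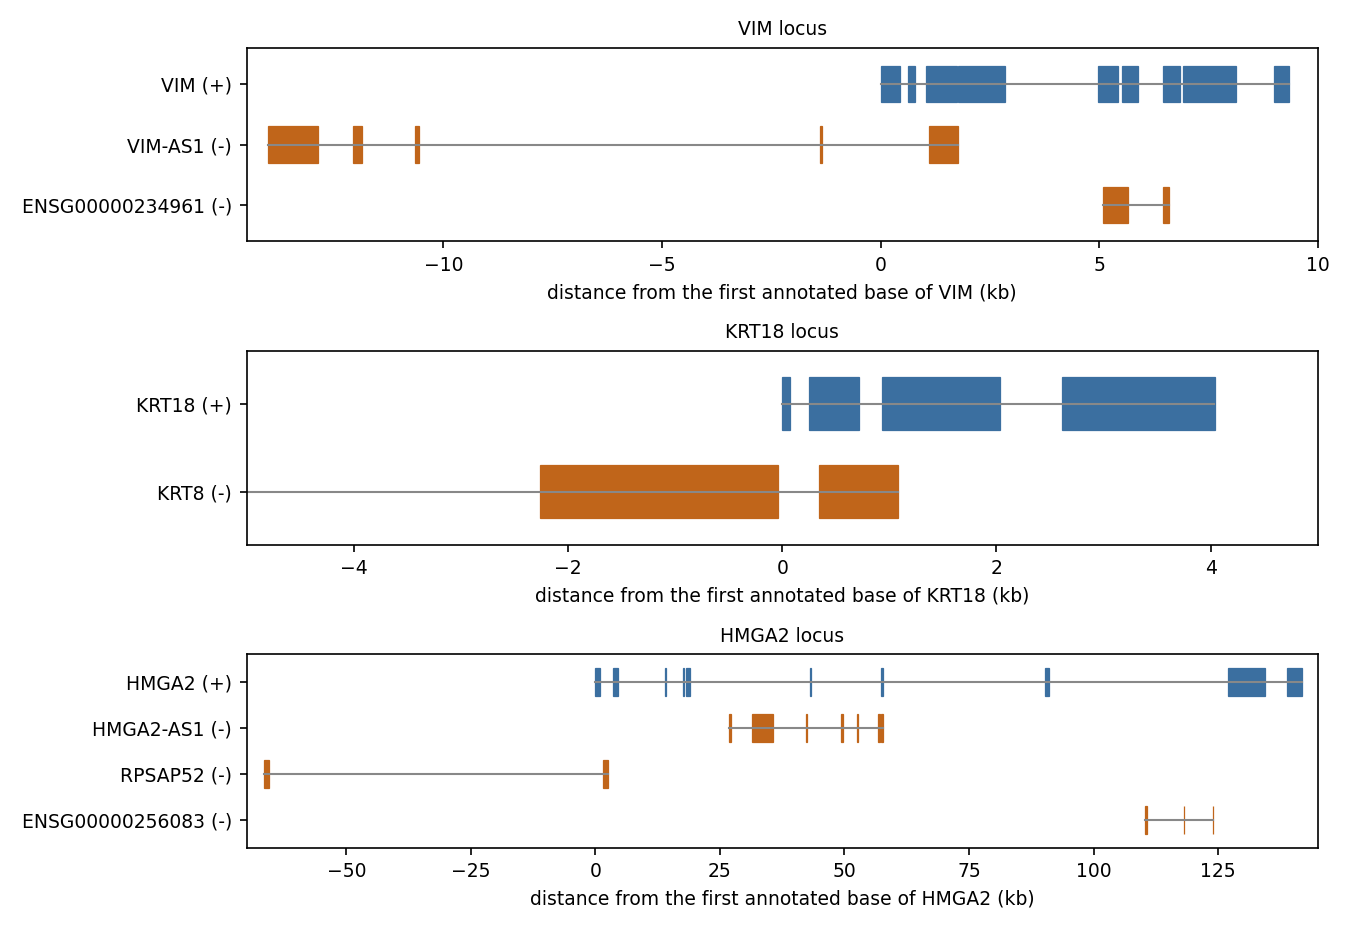
Merged exons (boxes) of the rows at each locus against distance in kb from the first annotated base of VIM, KRT18 or HMGA2, with plus-strand genes in blue and minus-strand rows in orange; the KRT18 panel shows only the end of KRT8 nearest KRT18. VIM-AS1 and ENSG00000234961 cover exons in different parts of VIM, KRT8 covers the 5′ part of KRT18, and RPSAP52 and ENSG00000256083 lie opposite HMGA2 with 0 shared exon bases.

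The coding stretches below lie within those shared exons, so a read from them, depending on its strand, goes to the coding gene or to the row opposite. They are printed on the coding strand, 5′ to 3′, from GRCh38. The VIM and KRT18 stretches are shown because both hold the helix initiation motif of intermediate filament proteins, in capitals, at which the rod domain begins. Between the genes, 38 of the 57 motif bases were identical (66.7%).
VIM, opposite VIM-AS1, chr10:17229705-17229851: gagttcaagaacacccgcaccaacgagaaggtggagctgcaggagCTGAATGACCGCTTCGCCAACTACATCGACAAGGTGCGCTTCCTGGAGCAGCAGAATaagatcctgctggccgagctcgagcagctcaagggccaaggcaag
KRT18, opposite KRT8, chr12:52949387-52949533: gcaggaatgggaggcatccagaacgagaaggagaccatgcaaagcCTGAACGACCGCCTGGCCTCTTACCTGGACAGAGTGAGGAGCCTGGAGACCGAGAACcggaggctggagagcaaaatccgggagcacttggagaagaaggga
VIM, opposite ENSG00000234961, chr10:17233770-17233898: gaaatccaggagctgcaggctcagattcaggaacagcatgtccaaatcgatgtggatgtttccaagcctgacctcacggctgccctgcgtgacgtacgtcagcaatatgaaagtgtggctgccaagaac
HMGA2, opposite HMGA2-AS1, chr12:65881743-65881769: tggttgctaatgaagagcccgtgctgg
The second VIM stretch belongs to the other opposite-strand row, and the HMGA2 stretch is the whole of the coding sequence that HMGA2 and HMGA2-AS1 share.

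The libraries held between 2819486 and 5458858 reads in genes, which was 3.58% to 9.4% of uniquely aligned reads. The 2 mitochondrial ribosomal RNAs took 3.12% to 53.53% of gene reads in CPA with synta-66, 0.17% to 9.43% in CPA and 1.14% to 39.63% in untreated libraries. CPA with synta-66 replicates 1 and 4 and untreated replicate 3 stood apart, with 268.2 M to 485.6 M non-unique alignments, and CPA replicate 2 had the fewest, at 44.2 M. Without the first 3 libraries the fold changes of the 6 rows kept their direction and their call in each comparison. Of 16 squamous epithelial markers none was at 0 in all libraries, with a summed own-row level of 80.2 to 183 CPM (counts per library size, with sizes scaled by TMM), and the rows opposite CDH1, ITGA6 and DSP summed to 533 to 686 CPM. Of 11 fibroblast markers, COL3A1, DCN, LUM, PDGFRB and POSTN were at 0 and the own rows summed to 0.225 to 1.73 CPM, while the row opposite FAP, the 1 fibroblast marker with such a row, was at 5.9 to 15.8 CPM. The immune list (9 genes, with CD3E, CD3D and MS4A1 among those at 0) summed to 10.9 to 26.6 CPM and the endothelial list (6 genes, KDR at 0) to 4.38 to 8.6 CPM.

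In each pair the row on the strand opposite the coding gene held most of the reads. Over the 12 libraries VIM had 1630 reads, VIM-AS1 177665 and ENSG00000234961 177278. Dividing all reads of a row by the exon bases it shares with VIM gives 271 and 286 reads per shared base for the last 2 rows. Reads within the shared bases were not counted apart, so these values are not the coverage of those bases. KRT18 had 1831 reads and KRT8 365827, or 697 per shared base, while HMGA2 had 710 and HMGA2-AS1 9287, or 24.2 per shared base. Reads from a row's own transcript and from the gene opposite it cannot be told apart here, and which of them these counts hold was not tested. The pattern was not confined to these loci. Of 3210 noncoding rows that share exons with 1 coding gene on the other strand and have reads on either, 1921 (59.8%) held more reads than the coding gene, with 14360313 reads over the noncoding rows and 3439011 over the coding ones. A strand setting opposite to that of the library would place a gene's reads at the row opposite it, and whether the setting was reversed was not tested. If it was, the own-row values given here for VIM, KRT18, HMGA2 and the marker genes would not measure those genes' transcripts. The same holds for the own rows of other coding genes named below, such as CCND1, OCLN, KRT15 and KRT13. The KRT8 row would then hold reads of KRT18 from their shared exons. KRT8 and KRT18 also have many near-identical processed copies in the genome: 51 KRT8 pseudogene rows held 879 reads and 67 KRT18 pseudogene rows held 2293. Their counts are therefore uncertain, since reads that align to more than 1 place are not counted.

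In CPM per kb of annotated exon, untreated cells had 1330 ± 119 for VIM-AS1 (SD, n = 4, as below), 1060 ± 39.5 for KRT8, 42.8 ± 9.64 for HMGA2-AS1, 12.5 ± 2.67 for KRT18, 6.02 ± 0.964 for VIM and 1.12 ± 0.238 for HMGA2. No neighbours in this order overlapped in untreated libraries. With CPA the order was the same and VIM-AS1 stood at 2510 ± 210, against 1110 ± 68.6 for KRT8. With synta-66 added, VIM-AS1 (1180 to 1370) and KRT8 (1150 to 1250) overlapped, and so did HMGA2-AS1 (15.1 to 19.1) and KRT18 (12.5 to 17.7). The order of VIM-AS1 and KRT8 depends on the division by length. In CPM without it, untreated cells had 7260 ± 272 for KRT8 and 2820 ± 254 for VIM-AS1.

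CPA raised 1 of the 6 rows, VIM-AS1, and lowered 0. A call here means an adjusted p under 0.05 and at least a 1.5-fold change by the quasi-likelihood test of edgeR, adjusted over all rows tested by the Benjamini-Hochberg method. By that rule 1.8% of the 14911 rows were higher and 1.05% lower with CPA than in untreated cells. CPA with synta-66 had 3 of the 6 rows lower than CPA alone, VIM-AS1, VIM and HMGA2-AS1, and 0 higher, where 1.94% of all rows were higher and 2.82% lower. Against untreated cells, CPA with synta-66 had 1 of the 6 lower, HMGA2-AS1, and 0 higher, where 1.66% of all rows were higher and 1.24% lower. A narrower background was 3991 tested rows that lie opposite exons of 1 coding gene, as VIM-AS1, KRT8 and HMGA2-AS1 do. Where a gene had several such rows, only the row with the most reads was kept. Of the 3991, 3.41% were called higher and 1.3% lower in the first comparison. These shares were 2.68% and 4.36% in the second, and 2.86% and 1.28% in the third. Because the 6 rows were chosen with earlier results of these data known, their counts beside these shares are descriptions only. The first and the second comparison share the CPA libraries, so a row that is high in them moves in opposite directions in both. In a bulk sample, fewer cells of a type and less RNA per cell cannot be told apart.

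VIM-AS1 was at 2520, 2890, 2730 and 2910 CPM in CPA with synta-66, at 5530, 4660, 5530 and 5590 CPM in CPA, and at 2810, 2860, 2510 and 3120 CPM in untreated libraries. Every CPA library lay above all others, and the groups of CPA with synta-66 and untreated overlapped. VIM-AS1 rose 1.89-fold with CPA over untreated (95% interval 1.7 to 2.1; log2 fold change 0.915 ± 0.076, SE; adjusted p = 3.35e-12). With synta-66 added it fell to 0.518 of the CPA level (0.466 to 0.576; log2 -0.948 ± 0.076; adjusted p = 1.06e-12). Between CPA with synta-66 and untreated cells the fold was 0.978, with an interval of 0.88 to 1.09 (adjusted p = 0.915), so at 95% confidence a difference in either direction would be smaller than the 1.5-fold used for calls.

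The row ENSG00000234961, with no gene name in the annotation used, reads another part of VIM's opposite strand. It stood at 2750, 2900, 2810 and 2770 CPM in CPA with synta-66, 4820, 5250, 5620 and 5600 CPM in CPA, and 2660, 2920, 2720 and 2660 CPM in untreated libraries. The CPA libraries were again above all others. Its log2 fold change was 0.957 ± 0.069 for CPA over untreated (adjusted p = 6.27e-14), -0.924 ± 0.069 for CPA with synta-66 over CPA (adjusted p = 1.58e-13) and 0.033 ± 0.069 for CPA with synta-66 over untreated (adjusted p = 0.899). The number of reads at VIM-AS1 was between 0.887 and 1.17 times that at ENSG00000234961 in every library.

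The VIM row itself held 67 to 217 reads a library. It was at 27.2, 18.2, 28.5 and 34.8 CPM in CPA with synta-66, 50.6, 41.2, 44.4 and 38.6 CPM in CPA, and 31.4, 33.6, 24.1 and 35.4 CPM in untreated libraries. The CPA libraries did not overlap the others on this strand either. VIM's own row was 1.4-fold higher with CPA than in untreated cells (1.1 to 1.77), which did not pass the test (log2 0.483 ± 0.169; adjusted p = 0.104). It fell with synta-66 to 0.614 of the CPA level (0.481 to 0.784; log2 -0.704 ± 0.175; adjusted p = 0.00636), a call that was lost without CPA with synta-66 replicate 2 (log2 -0.534, adjusted p = 0.064).

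**Figure D2:**
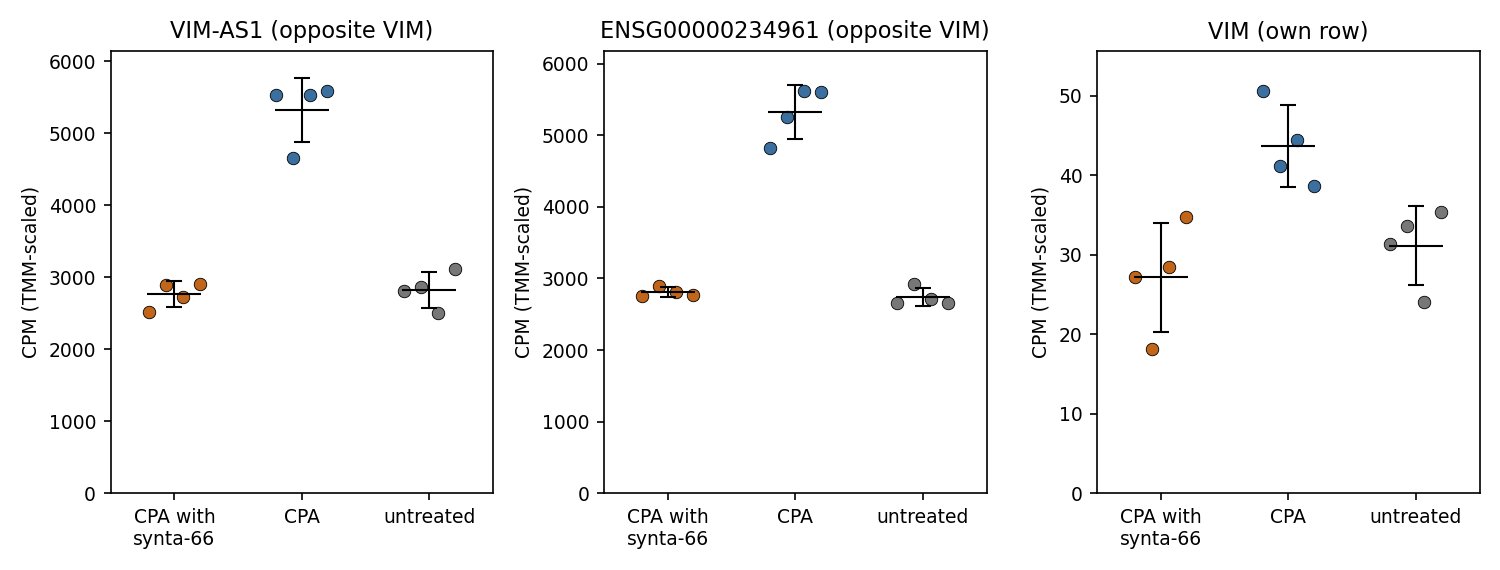
CPM (TMM-scaled) of the 3 rows at the VIM locus in each library (points), with the group mean and SD (bars), n = 4 per group. The CPA libraries lie above the other groups in each panel, at 4660 to 5590 CPM for VIM-AS1, 4820 to 5620 CPM for ENSG00000234961 and 38.6 to 50.6 CPM for VIM.

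KRT8 differed little between groups. It was at 7900, 8630, 8150 and 8510 CPM in CPA with synta-66, 7660, 7020, 8100 and 7900 CPM in CPA, and 6950, 7550, 7130 and 7410 CPM in untreated libraries. CPA with synta-66 and untreated libraries did not overlap, while the CPA libraries overlapped both. The fold was 1.06 for CPA over untreated (0.959 to 1.16; adjusted p = 0.677), 1.08 for CPA with synta-66 over CPA (0.982 to 1.19; adjusted p = 0.401) and 1.14 for CPA with synta-66 over untreated (1.04 to 1.26; adjusted p = 0.126). All 3 intervals for KRT8 end below a 1.5-fold rise.

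KRT18, the acidic partner of KRT8, held 107 to 199 reads a library on its own row. Its level was 46.7, 38.3, 46.2 and 54.4 CPM in CPA with synta-66, 36.9, 37.0, 30.7 and 33.7 CPM in CPA, and 31.2, 39.8, 33.4 and 49.5 CPM in untreated libraries. The libraries of CPA with synta-66 lay above those of CPA, and both overlapped the untreated ones. No difference in KRT18 passed the test: the log2 fold change was -0.154 ± 0.156 for CPA over untreated (adjusted p = 0.734), 0.416 ± 0.157 for CPA with synta-66 over CPA (adjusted p = 0.107) and 0.262 ± 0.157 for CPA with synta-66 over untreated (adjusted p = 0.483).

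HMGA2-AS1 was lowest with synta-66. It was at 115, 91.0, 107 and 114 CPM in CPA with synta-66, 158, 355, 176 and 156 CPM in CPA, and 251, 238, 340 and 203 CPM in untreated libraries. Every library of CPA with synta-66 lay below all others, while CPA and untreated libraries overlapped through CPA replicate 2, at 355 CPM. HMGA2-AS1 fell with synta-66 to 0.504 of the CPA level (0.401 to 0.632; log2 -0.99 ± 0.163; adjusted p = 2.79e-05) and was at 0.413 of the untreated level (0.329 to 0.519; log2 -1.277 ± 0.163; adjusted p = 2.35e-07). For CPA over untreated the fold of 0.82 did not pass (0.659 to 1.02; adjusted p = 0.396). Without CPA replicate 2 that comparison was called, at log2 -0.652 ± 0.119 (adjusted p = 0.000262), and the fall of CPA with synta-66 against CPA was smaller, at -0.621 (adjusted p = 0.000549). CPA replicate 2 was the library with the lowest share of mitochondrial ribosomal RNA, 0.17%, and the part of this in its value was not tested.

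The HMGA2 row held 24 to 91 reads a library, the fewest of the 6. It was at 9.74, 10.6, 14.7 and 22.6 CPM in CPA with synta-66, 16.8, 21.2, 12.5 and 8.85 CPM in CPA, and 13.3, 15.2, 17.2 and 21.7 CPM in untreated libraries. All 3 groups overlapped. HMGA2's fold was 0.882 for CPA over untreated (0.608 to 1.28; adjusted p = 0.835), 0.963 for CPA with synta-66 over CPA (0.657 to 1.41; adjusted p = 0.953) and 0.849 for CPA with synta-66 over untreated (0.58 to 1.24; adjusted p = 0.787).

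Further rows lie opposite HMGA2 without sharing an exon with it, and both were singled out after their values were seen. RPSAP52 (ENSG00000241749) is a transcribed pseudogene of a ribosomal protein gene, on the minus strand at chr12:65758020-65826997, and its body overlaps that of HMGA2 by 2538 bases. RPSAP52 was at 37.7, 29.7, 36.4 and 52.2 CPM in CPA with synta-66, 53.9, 64.4, 55.7 and 60.7 CPM in CPA, and 74.9, 84.8, 82.2 and 79.4 CPM in untreated libraries. No group overlapped another. CPA with synta-66 lowered RPSAP52 against untreated cells (log2 -1.063 ± 0.139; adjusted p = 3.86e-07) and against CPA (-0.61 ± 0.14; adjusted p = 0.00282). The second call fell under the 1.5-fold minimum without CPA replicate 2 (-0.565), CPA with synta-66 replicate 2 (-0.487) or CPA with synta-66 replicate 3 (-0.578). For CPA over untreated the change was -0.453 ± 0.132 with adjusted p = 0.0351, under 1.5-fold. The noncoding row ENSG00000256083, on the minus strand at chr12:65934777-65948479 within an intron of HMGA2, was at 3.05 to 13.3 CPM in CPA with synta-66, 5.61 to 16.3 CPM in CPA and 8.79 to 15.9 CPM in untreated libraries, and was not called.

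**Figure D3:**
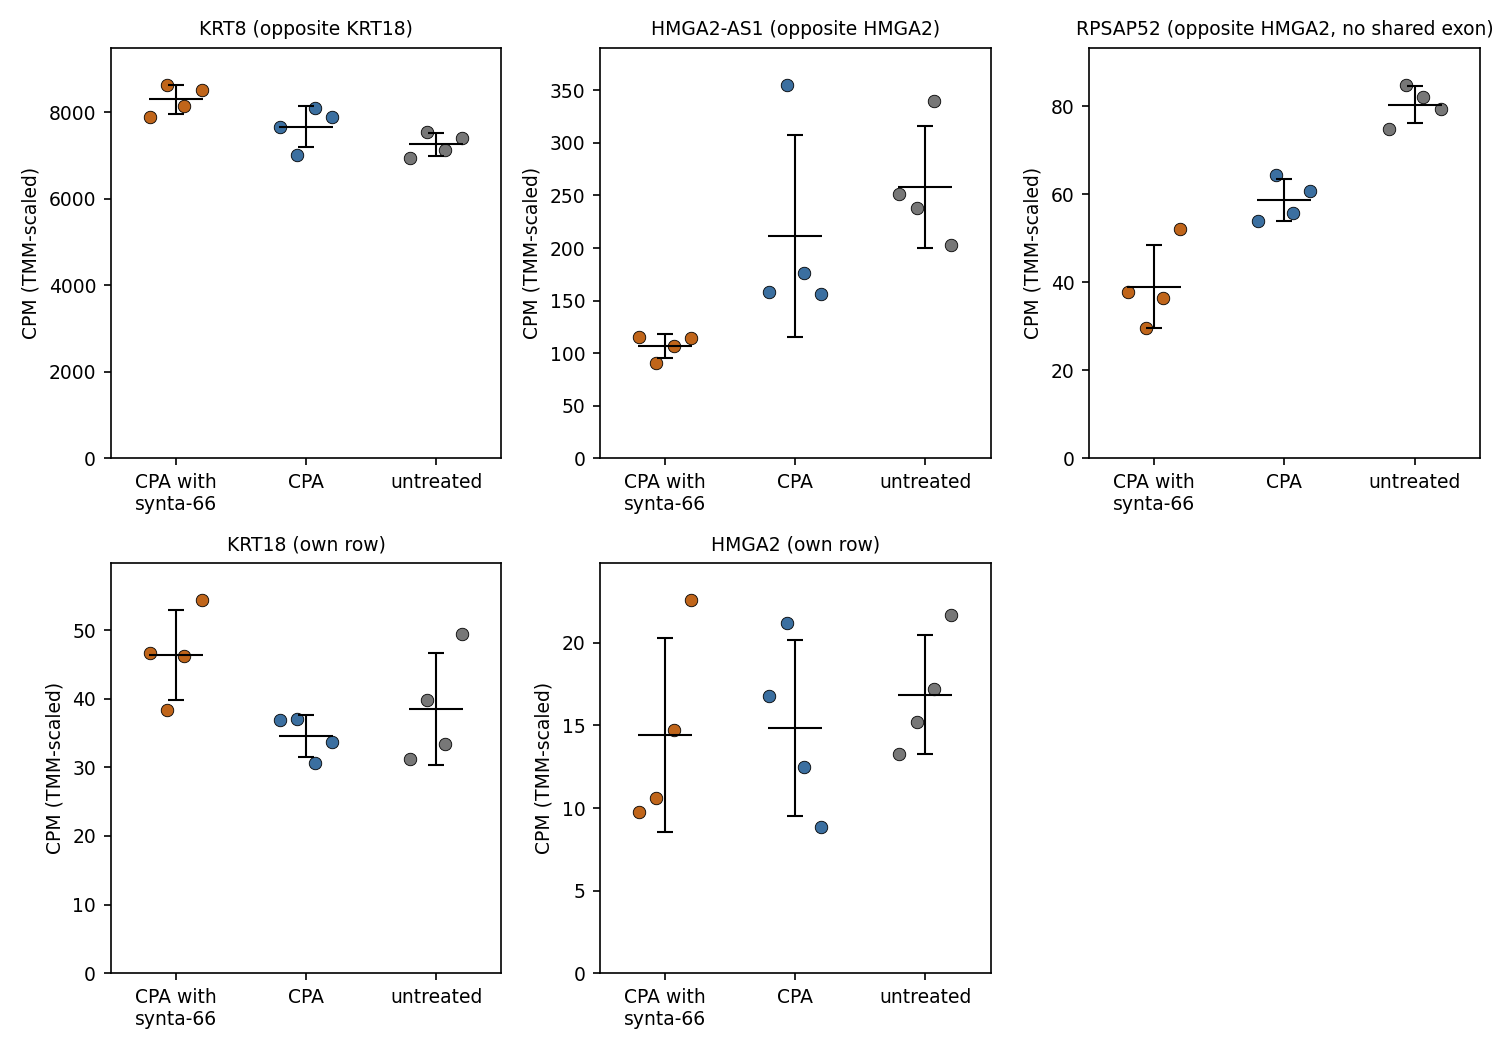
CPM (TMM-scaled) of KRT8, KRT18, HMGA2-AS1, HMGA2 and RPSAP52 in each library (points), with the group mean and SD (bars), n = 4 per group. HMGA2-AS1 lies between 91.0 and 115 CPM with synta-66, below the other groups, with CPA replicate 2 high at 355 CPM, and KRT8 lies between 6950 and 8630 CPM throughout.

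**Figure D4:**
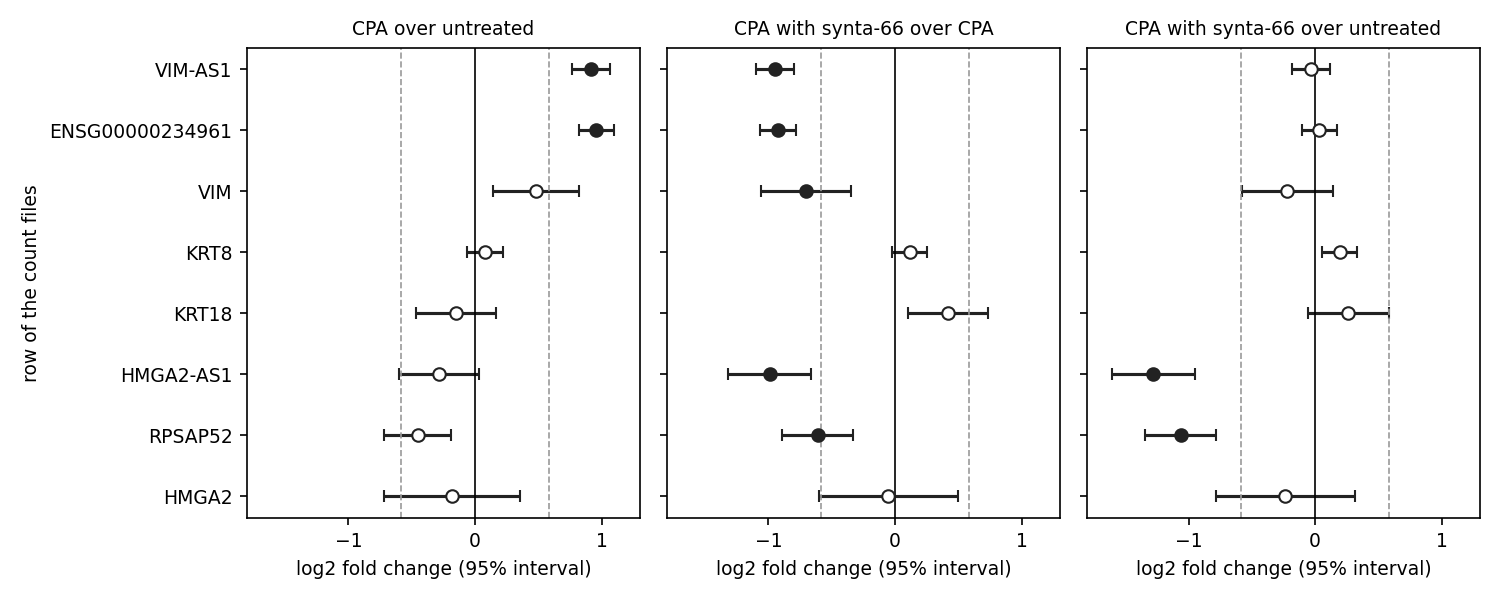
Log2 fold change with its 95% interval from edgeR's quasi-likelihood test for 8 rows in 3 comparisons; filled points were called and dashed lines mark 1.5-fold in either direction. VIM-AS1 and ENSG00000234961 lie near 0.915 and 0.957 for CPA over untreated and near 0 for CPA with synta-66 over untreated, where HMGA2-AS1 and RPSAP52 lie at -1.277 and -1.063.

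A ratio of 2 rows within a library does not depend on its depth or scaling, so it shows whether the rows of a pair changed alike. It does not compare the strands of 1 gene, since both rows also have exon bases outside the shared ones. It is not corrected for length. The log2 ratio of VIM-AS1 to VIM was 6.925 ± 0.181 in CPA and 6.502 ± 0.125 in untreated libraries, a difference of 0.424 with p = 0.0286 in an exact two-sided permutation test, the smallest that 4 against 4 libraries allow. Adjusted over the 9 ratio tests it did not pass (exact test, adjusted p = 0.171). A single ratio could not pass this adjustment by itself, however large its change, since the exact p cannot go below 0.0286. The adjusted values therefore do not decide whether a ratio changed. HMGA2-AS1 to HMGA2 was 2.935 ± 0.5 in CPA with synta-66, 3.794 ± 0.41 in CPA and 3.915 ± 0.491 in untreated libraries. Its differences were -0.859 for CPA with synta-66 minus CPA and -0.98 for CPA with synta-66 minus untreated (exact permutation, p = 0.0571 and adjusted p = 0.171 in each). The other 6 ratio tests, among them those of KRT8 to KRT18, had adjusted p between 0.257 and 0.629 in the exact test.

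The ratio of VIM-AS1 to KRT8, added after the data were seen, sets the row opposite vimentin beside the row opposite keratin 18. It was 0.319, 0.334, 0.335 and 0.342 in CPA with synta-66, 0.722, 0.664, 0.683 and 0.708 in CPA, and 0.404, 0.378, 0.351 and 0.421 in untreated libraries. No group overlapped another. On the log2 scale CPA exceeded untreated by 0.838, CPA with synta-66 was below CPA by a difference of -1.061, and CPA with synta-66 was also below untreated, at -0.223. These are descriptions with no test, since both rows were picked with their changes known.

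**Figure D5:**
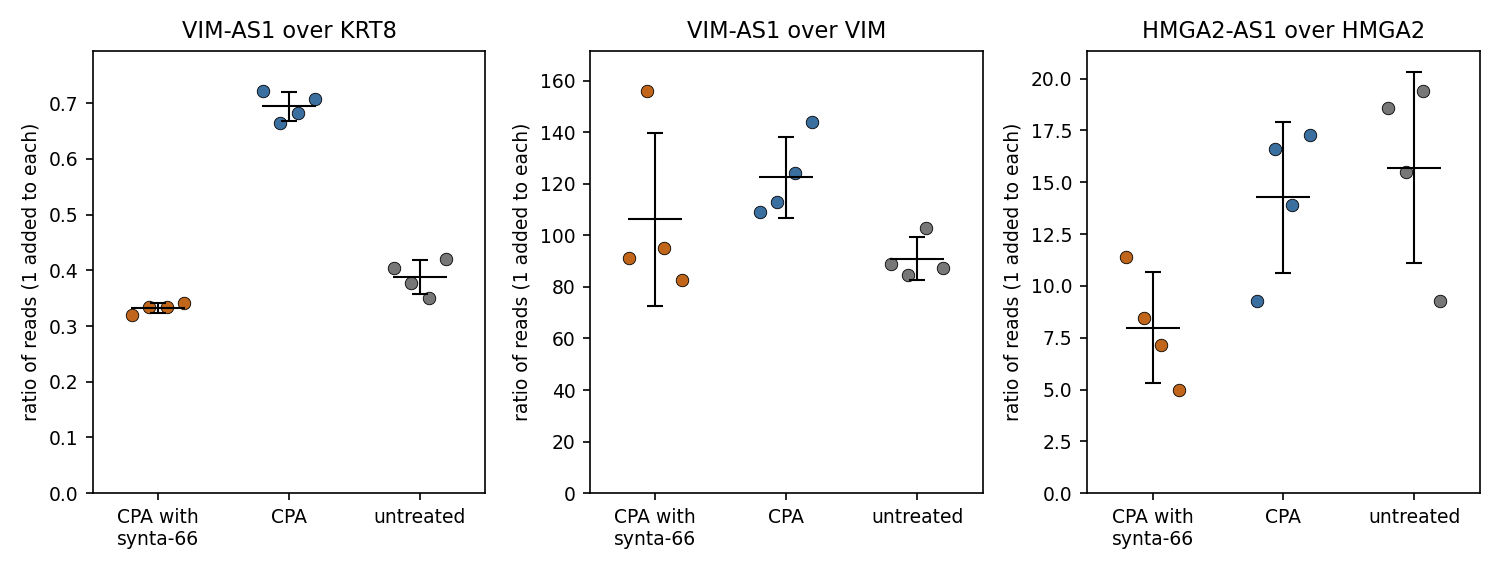
Ratio of reads between rows in each library (points; 1 read added to each row), with the group mean and SD (bars), n = 4 per group. VIM-AS1 over KRT8 lies at 0.319 to 0.342 in CPA with synta-66, 0.664 to 0.722 in CPA and 0.351 to 0.421 in untreated cells; the ratios to the own rows of VIM and HMGA2 spread more widely.

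Rows with the pattern most like each opposite-strand row were found among 6357 rows with a mean of at least 5 CPM. Likeness was the root mean square difference in log2(CPM + 1), relative to the untreated mean, over the 12 libraries. Rows picked this way share the changes of that row by the choice itself, so their values are descriptions only. Nearest to VIM-AS1 were ENSG00000234961 at 0.123, which lies opposite the same gene, and RBM38-AS1, opposite the RNA-binding protein gene RBM38, at 0.13, where the median row was at 0.64. RBM38-AS1 had a log2 fold change of 0.995 for CPA over untreated and -0.912 for CPA with synta-66 over CPA. The next were ENSG00000281194, which has no name in the annotation used, at 0.155, and ENSG00000214248, opposite the volume-regulated anion channel subunit gene LRRC8E, at 0.174. Among the rows nearest to KRT8 were TATDN1, a nuclease-like gene (0.0453), ENSG00000230532 opposite SNF8 of the ESCRT-II complex (0.0559) and ENSG00000272910 opposite ACTL6A, an actin-like subunit of chromatin remodellers (0.0646). The median row was at 0.387 from KRT8, and these rows, like KRT8, were not called in any comparison.

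HMGA2-AS1 had no row as near. AKAP5, which anchors protein kinase A, was at 0.198, the placental transcript PLAC4 at 0.285, and ENSG00000259279 and THBS1-AS1, at 0.324 each, with a median of 0.875. THBS1-AS1 lies opposite the thrombospondin gene THBS1. AKAP5 was at 10.9 to 13.5 CPM in CPA with synta-66, 14.9 to 35.6 in CPA and 21.1 to 37.8 in untreated libraries. CPA replicate 2 was the highest of its group. PLAC4 had its highest CPA value, 53.9 CPM, in replicate 2, against 15.5 to 25.0 CPM in the other CPA libraries. Likeness was taken over single libraries, so it favours rows that, like HMGA2-AS1, are high in CPA replicate 2. THBS1-AS1 averaged 1380 ± 58.4 CPM in CPA with synta-66, 2050 ± 180 in CPA and 2930 ± 203 in untreated cells. For CPA with synta-66 over untreated the log2 fold change was -1.082 for THBS1-AS1, -1.191 for AKAP5 and -1.122 for PLAC4. Each was called, but these rows were chosen for likeness to HMGA2-AS1 over the same libraries. Their falls therefore add no support to that of HMGA2-AS1. For AKAP5 that call ended without the 3 libraries that stood apart (-1.021; adjusted p = 0.0547).

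Of 47 genes of intermediate filaments and their linkers, 12 had a tested row opposite them. With CPA 2 of these rows rose, those opposite VIM and SYNC, and 0 fell, with a median log2 fold change of 0.08 beside 0.031 over all 3991 such rows. With synta-66 added the same 2 fell against CPA and 0 rose (median -0.57 beside -0.002), and against untreated 1 fell, that opposite SYNC (median -0.285 beside 0.014). Without the 3 libraries that stood apart the counts were the same and the last 2 medians were -0.339 and -0.178. Over all such rows 3.41% were higher and 1.3% lower in the first comparison, 2.68% and 4.36% in the second, and 2.86% and 1.28% in the third. The list holds rows chosen with earlier results of these data known, VIM-AS1 and VIM among them. Its counts are therefore descriptions only. SYNC, or syncoilin, an intermediate filament protein of muscle, was read at RBBP4, itself a coding gene, from which it cannot be told apart. This row averaged 37.2 ± 10.8 CPM in CPA with synta-66, 139 ± 17.0 in CPA and 62.4 ± 6.88 in untreated cells. Its log2 fold changes were 1.152 ± 0.134 for CPA over untreated (adjusted p = 3e-08), -1.893 ± 0.142 for CPA with synta-66 over CPA (adjusted p = 1.58e-13) and -0.741 ± 0.144 for CPA with synta-66 over untreated (adjusted p = 0.000546). By their own rows 31 of the 47 genes were tested. None was called with CPA, where 1.8% of all rows were higher and 1.05% lower. With synta-66 3 fell against CPA and 1 fell against untreated, where 2.82% and 1.24% of all rows did. The 3 were VIM and, named after their values were seen, the stratified epithelial keratins KRT15 and KRT13, and KRT15 was the 1. KRT15 averaged 0.974 CPM in CPA with synta-66, 9.27 in CPA and 4.11 in untreated cells, and KRT13 averaged 0.831 CPM in CPA with synta-66, 3.64 in CPA and 3.0 in untreated cells. Both lie near the floor, with means of 4.79 and 2.49 CPM over all libraries, under the 5 CPM used for naming, and a lowest count of 1 read. The median over the 31 own rows was 0.074, -0.505 and -0.284 in the 3 comparisons, beside -0.007, -0.037 and -0.056 over all rows. Without the 3 libraries that stood apart 33 own rows were tested, of which 2 fell against CPA and 0 against untreated. Of all 16040 rows tested in that fit, 392 and 142 fell.

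Of 54 factors and markers of epithelial to mesenchymal transition, 18 had a tested row opposite them. With CPA 2 of these rows were higher, those opposite OVOL1 and LOX, and 0 lower, where 3.41% and 1.3% of all such rows were (median 0.062 beside 0.031). With synta-66 added 3 were lower than with CPA, those opposite OVOL1, LOX and ITGA5, and 0 higher, where 4.36% of all were lower and 2.68% higher (median -0.068 beside -0.002). Against untreated 1 was higher, that opposite LOX, and 0 lower, where 2.86% and 1.28% of all were (median -0.017 beside 0.014). Without the 3 libraries that stood apart that median was -0.054. OVOL1 is a zinc finger repressor that acts in epithelial differentiation. The row opposite it, ENSG00000255404, averaged 28.0 CPM in CPA with synta-66, 101 in CPA and 38.6 in untreated cells. The change there was 1.386 ± 0.145 on the log2 scale for CPA over untreated (adjusted p = 2.1e-09) and -1.823 ± 0.152 for CPA with synta-66 over CPA (adjusted p = 3.2e-12). LOX, the enzyme that cross-links collagen and elastin, averaged 18.0 CPM in CPA with synta-66, 32.1 in CPA and 10.4 in untreated cells at SRFBP1, a coding gene from which it cannot be told apart. Its call against untreated (log2 0.787; adjusted p = 0.0215) was lost without the 3 libraries that stood apart (0.717; adjusted p = 0.196) and without CPA with synta-66 replicate 3 or 4 or untreated replicate 1 or 2. ITGA5 encodes a subunit of the fibronectin receptor. The row opposite it, GPR84-AS1, averaged 51.6 CPM in CPA with synta-66, 80.9 in CPA and 59.3 in untreated cells. The call of GPR84-AS1 against CPA, at log2 -0.654 (adjusted p = 0.000152), fell under 1.5-fold without CPA with synta-66 replicate 3 (-0.583). Whether the rows opposite OVOL1 and ITGA5 hold reads of those genes was not tested. By own rows 38 genes were tested and none was called with CPA or between CPA with synta-66 and CPA. Of all rows, 1.8% were higher and 1.05% lower in the first of these comparisons, and 1.94% and 2.82% in the second. Against untreated 2 were called higher in CPA with synta-66, where 1.66% of all rows were, and 0 lower, where 1.24% were. The tight junction gene OCLN averaged 9.09 CPM in CPA with synta-66 and 2.4 in untreated cells (log2 1.893 ± 0.418; adjusted p = 0.0029), and the other was FOXC2, named after its values were seen. FOXC2 had 0 to 14 reads in libraries of CPA with synta-66 and 0 in each untreated one, and it passed the count filter only through CPA with synta-66, so its call carries no weight here. The own-row medians were -0.121, 0.129 and 0.099 in the 3 comparisons, beside -0.007, -0.037 and -0.056 over all rows, and -0.183, 0.132 and -0.011 without the 3 libraries that stood apart, where the third changes sign.

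Of 28 genes around HMGA proteins and let-7, 10 had a tested row opposite them, and the HMGA2-AS1 row was the 1 called among these rows. None was called with CPA (median -0.065 beside 0.031 over all opposite rows, of which 3.41% were higher and 1.3% lower). With synta-66 the HMGA2-AS1 row fell against CPA, where 4.36% of all such rows did (median -0.161 beside -0.002), and against untreated, where 1.28% did (median -0.074 beside 0.014), with 0 rows higher in either. HMGA2-AS1 was chosen with earlier results of these data known, so these counts are descriptions only. HMGA2's own row was not called in any comparison. Without the 3 libraries that stood apart the 3 medians were -0.028, -0.127 and -0.127. By their own rows 22 genes were tested, with medians of -0.169, 0.022 and -0.025 beside -0.007, -0.037 and -0.056 over all rows, and -0.265, 0.023 and -0.06 without those 3 libraries. With CPA 1 of the 22 fell, where 1.05% of all rows did, and in CPA with synta-66 1 was higher than in CPA (1.94% of all) and 1 lower than in untreated cells (1.24%). The cyclin gene CCND1 averaged 65.2 CPM in CPA with synta-66, 63.8 in CPA and 105 in untreated cells, and fell with CPA (log2 -0.717 ± 0.188; adjusted p = 0.0149) and in CPA with synta-66 against untreated (-0.683 ± 0.191; adjusted p = 0.0279). Without untreated replicate 4 neither call held (-0.383, adjusted p = 0.226, and -0.348, adjusted p = 0.31). The first was also lost without CPA replicate 3 or 4, the second without CPA with synta-66 replicate 1 or 2 or untreated replicate 1, and both with DESeq2. DROSHA of microRNA processing, named after its values were seen, was the 1 own row higher in CPA with synta-66 than in CPA, at 0 to 12 reads against 0 to 1 read a library. It passed the count filter only through CPA with synta-66, so its call carries no weight here.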

How the data were processed

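Total RNA of 12 HSC-3 libraries was sequenced. Per the labels, the authors trimmed paired reads with Trimmomatic (0.32 in the protocols, 0.36 in the submitters' processing notes), aligned them with STAR 2.5.2a to GRCh38 and counted them per gene with HTSeq 0.6.1p1 and Ensembl 84, taking the library as stranded. Which strand that setting kept, and the library kit, are not given in the sources used here. Whether the setting was reversed was not tested. Each library has 1 deposited file of raw counts, not normalized by the authors, with 60675 gene rows and 5 closing rows. The closing rows were left out: reads in no feature alone were 90.53% to 96.34% of uniquely aligned reads.

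The filter kept 14911 rows with 5 or more reads in at least 2 libraries of some group. These were fitted with edgeR 4.0.16 (R 4.3.3), using TMM scaling, the quasi-likelihood test, 1 fit of all 12 libraries by group and Benjamini-Hochberg adjustment. Of the gene IDs, 56558 were found in GENCODE 44, used for coordinates and overlaps, and 4117 were not. A gene was read at an opposite row where they shared at least 30 exon bases and the row lay opposite no other coding gene. Of several tested rows opposite a gene, the row with the most reads was kept. Ratios of rows used 1 added read and an exact two-sided permutation test of 70 regroupings. The steps were also tested on simulated data. Replicate pairs differed by far more than sampling noise (chi-square per degree of freedom 4.85 to 315.35), so no library was counted as a copy of another.

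Named rows were the 6 members, any other tested row sharing exons with VIM, KRT8, KRT18 or HMGA2, the 4 rows most like each opposite-strand member, and list members called with a mean of at least 5 CPM, up to 6 a list. Some rows that this rule names are not reported here. The members, the lists and this rule were chosen with earlier results of these data known. As alternatives, scaling was changed to RLE or upper quartile, the filter to filterByExpr or none, and the test to DESeq2 1.42.0. Others were no minimum fold, fits of 2 groups alone, the replicate number as a block, other added counts in the ratios, and each library left out. The fit without the 3 libraries that stood apart (CPA with synta-66 replicates 1 and 4, untreated replicate 3), scaling by uniquely aligned reads, and the ratio of VIM-AS1 to KRT8 were added after seeing the data.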

Additional observations from a re-analysis of the deposited data

Results flagged for a closer look

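A single library stood apart from the rest of its group in 2 of the 36 sets of 4 libraries examined, by Dixon's test at 95%, where chance marks about 1 in 20. VIM-AS1 was at 4660 CPM in CPA replicate 2, below 5530 to 5590 CPM in the other CPA libraries, and still above every library of CPA with synta-66 and every untreated library. HMGA2-AS1 was at 355 CPM in the same library, above 156 to 176 CPM in the other CPA libraries. CPA replicate 2 also had the lowest share of mitochondrial ribosomal RNA, 0.17% of gene reads, and the fewest non-unique alignments, 44.2 M, and the part of either in these values was not tested.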

How the results depend on the processing

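The number of rows called for CPA over untreated was 425, and 655 with no minimum fold, since that setting drops a criterion. The calls for VIM-AS1 and KRT8 were the same under every alternative run. Leaving out each library in turn gave VIM-AS1 log2 fold changes of 0.862 to 0.979 for CPA over untreated, -1.009 to -0.906 for CPA with synta-66 over CPA and -0.085 to 0.019 for CPA with synta-66 over untreated. For KRT8 these ran from 0.055 to 0.124, 0.072 to 0.14 and 0.171 to 0.216, and with DESeq2 the last was 0.203 with adjusted p = 0.00775, under 1.5-fold. HMGA2-AS1 ran from -0.652 to -0.129 for CPA over untreated, called when CPA replicate 2 was left out, from -1.111 to -0.621 for CPA with synta-66 over CPA and from -1.375 to -1.119 against untreated. The rows called in the 3 comparisons numbered 357 to 441, 568 to 784 and 335 to 427 when 1 library was left out, and 508, 802 and 481 with DESeq2.

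Same-numbered libraries did not deviate together (correlations from -0.073 to 0.14, and 2 of 12 highest with their own number), so the numbers were not taken as pairs. With the replicate block 441, 723 and 418 rows were called, and no call of a member changed. Scaled by uniquely aligned reads, CPA with synta-66 over untreated had 194 rows higher and 262 lower, against 248 and 185 with TMM, and the median of all rows was -0.146 in place of -0.056. VIM-AS1 then had -0.128 and HMGA2-AS1 -1.36. The rows of VIM, KRT18 and HMGA2 rest on 24 to 217 reads a library, which limits what they can show.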
